A study of Caenorhabditis elegans with 26 samples.

Results

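The miRNA miR-1 was followed through both arms of its hairpin, miR-1-3p and miR-1-5p. They are the entries of that name in the deposited counts and make up 2 of the 439 listed mature sequences. Small RNAs were sequenced from whole *Caenorhabditis elegans* larvae that grew on food at 25 °C and were sampled at each hour between 18 h and 30 h after plating as synchronized L1s. The mutant strain HW2643 has the allele *mir-235(xe181[seed_mutant])*, shortened to *mir-235(seed_mut)*. Genome editing had changed bases in its miR-235 seed together with the paired bases of the opposite strand, while the *mir-1* gene was not a target of the edit. The wild-type strain was N2. Each strain gave 13 libraries, 1 per hour from a single culture series, with no replicate at any hour, no treatment beyond growth, and 1 edited allele. Strain and culture therefore cannot be told apart.

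miRNAs are cut from a hairpin as a duplex, of which the guide strand is kept in an Argonaute protein while the passenger strand is usually degraded, and the guide recognizes target mRNAs mainly through its seed. miR-1 is a muscle miRNA shared by nematodes, insects and vertebrates. In *C. elegans* its guide is the 3p arm, which is made in body wall and pharyngeal muscle and has been linked to signalling at the neuromuscular junction. miR-235, the edited miRNA, is the worm member of the miR-92 family, and miR-796 is the other worm miRNA with the miR-1 seed.

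In the Ensembl annotation of the WBcel235 assembly, *mir-1* is a minus-strand gene of chromosome I between the coding genes T09B4.4 and T09B4.3. It overlaps the noncoding gene T09B4.14 on the plus strand, and reads had been counted on the miRNA's own strand. *mir-235* lies on the same chromosome and strand, with 2 coding genes and 0 other miRNA genes between it and *mir-1*. *mir-796* lies on chromosome X. Coordinates are not given because the reads had been aligned to another assembly, ce10.

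Library totals were 2658960 to 4279734 counts in the mutant and 1342771 to 3587330 in N2. Levels are given as CPM, the count scaled to a library total of 1000000, and no 2 libraries held identical values. The N2 library at 23 h was the smallest and stood apart from its neighbours in time. Of the 177 miRNAs that averaged 50 counts or more, 32 were there more than 2-fold below the mean of the hours on either side, and 5 were above it. The mutant library at 24 h had 11 miRNAs more than 2-fold above the mean of its neighbouring hours, against 0 to 8 in the 21 other libraries that have a neighbour on both sides. Where a miR-1 value moved much without either library, that value is given beside it. RNA came from whole larvae, so fewer muscle cells and less RNA per cell cannot be told apart. The name muscle miRNA could not be checked against other muscle markers because miR-1-3p is itself the muscle marker among the miRNAs used here.

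miR-1-3p was among the most abundant miRNAs of the larvae at every hour. It reached 26284 CPM in the mutant at its lowest (29 h), with a median of 33397 CPM and a highest value of 40020.3 CPM (28 h). In N2 the lowest level was 20771 CPM (23 h), the median 31488 CPM and the highest 35845 CPM (25 h). The ranges overlapped over most of their length. The means were 33583 ± 4692 CPM in the mutant and 30107 ± 4488 CPM in N2 (SD, n = 13 hours each). This was 2.63% to 4.00% of all miRNA reads in mutant libraries and 2.08% to 3.58% in N2 libraries, and the arm ranked 7th to 13th in mutant and 8th to 14th in N2 libraries. At such depth counting error was small. The exact Poisson 95% interval at its widest relative to the level, in N2 at 23 h, ran from 20527 to 21016 CPM.

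**Figure D1:**
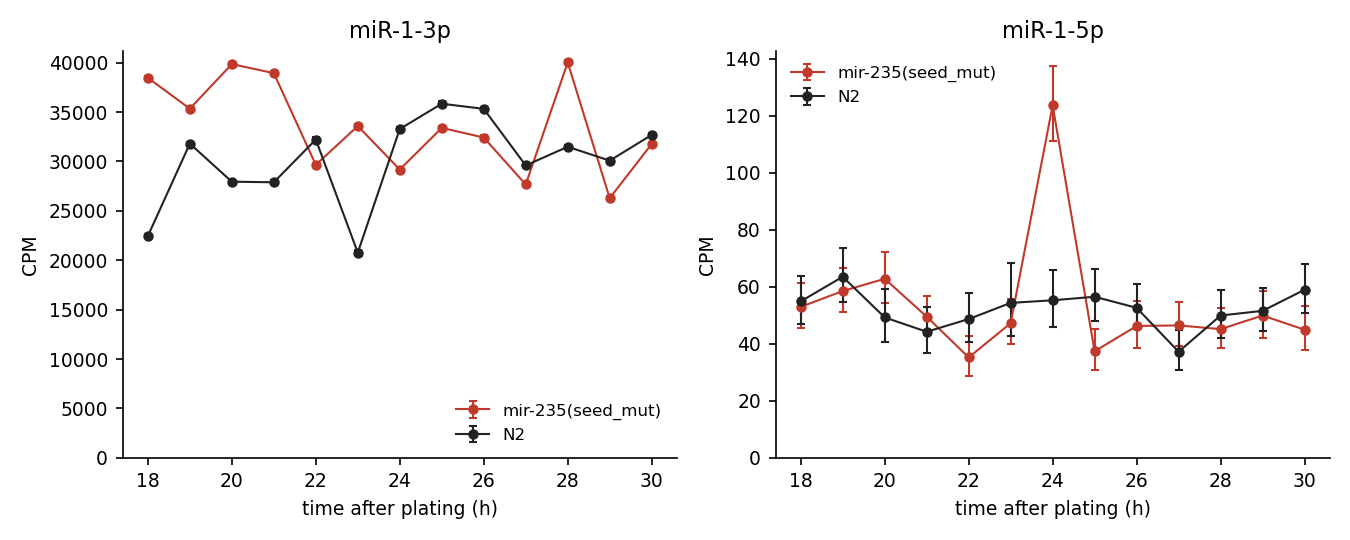
Level of miR-1-3p (left) and miR-1-5p (right) in CPM by time after plating in h, with mir-235(seed_mut) in red and N2 in black. Points are single libraries and bars are exact Poisson 95% intervals, which cover counting error only and are smaller than the points for miR-1-3p. The guide stayed between 20771 and 40020.3 CPM, while the passenger had 1 high value, 124 CPM in the mutant at 24 h.

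The N2 minimum and the next lowest value, 22450.3 CPM at 18 h, stood apart from the remaining N2 hours. Those 11 hours lay between 27892 and 35845 CPM. In the mutant no such gap was seen. Its 4 earliest hours lay at 38467, 35342, 39851 and 38942 CPM, and 28 h was the only later hour above the lowest of these. This held in CPM only. With libraries rescaled by the trimmed mean of M-values (TMM), the same hours lay at 34868, 30974, 34434 and 34653 CPM. On that scale 23, 25, 26, 28 and 30 h were above the lowest of them. The highest were 28 h at 40058 CPM and 26 h at 36010 CPM. Each hour had 1 library per strain, so this pattern of hours is a description.

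Sorted by mean CPM over all 26 libraries, miR-1-3p was 10th, at 31845 CPM. Its neighbours in this order were miR-44-3p (33968 CPM), miR-64-5p (33296 CPM), miR-70-3p (31245 CPM) and miR-90-3p (29263 CPM). miR-1-3p was above miR-44-3p in 12 of the 26 libraries, above miR-64-5p in 10, above miR-70-3p in 16 and above miR-90-3p in 20. On the log2 scale miR-1-3p differed from these 4 by -0.09 to 0.13 on average, and the SD of the difference over libraries was 0.29 to 0.42. These mean differences were smaller than their SD over libraries, and whether the mean levels differ was not tested. All these are levels of different sequences, whose efficiency of ligation into a library can differ, and the part this played in the order was not tested.

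The passenger miR-1-5p was detected in every library at a far lower level. In the mutant it ranged from 35.2 CPM (22 h) through a median of 47.2 CPM to 124 CPM (24 h), and in N2 from 37.2 CPM (27 h) through a median of 52.6 CPM to 63.5 CPM (19 h). The means were 53.9 ± 22.3 CPM in the mutant and 52.1 ± 6.64 CPM in N2 (SD, n = 13 hours each). The mutant SD was set by the library at 24 h, without which the mutant mean was 48.0 ± 7.75 CPM (SD, n = 12) and every mutant value lay between 35.2 and 62.8 CPM. Outside that library the values of the strains overlapped throughout. The arm was counted with 99 to 350 reads in mutant libraries and 73 to 195 reads in N2 libraries, far above the floor of 3 counts, which was at most 2.23 CPM. Its mean level was 136th among all miRNAs.

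Over all libraries together 2524042 reads came from the 3p arm and 4116 from the 5p arm, so that miR-1-5p made up 0.163% of both (Wilson 95% interval 0.158% to 0.168%). The share was 0.157% in the pooled mutant libraries and 0.170% in the pooled N2 libraries. Per library, the number of 3p reads for each 5p read was 236 (24 h) at its lowest in the mutant, 707 at the median and 893 (25 h) at its highest. In N2 it was 382 (23 h), 602 at the median and 795.0 (27 h). The 3p arm was thus at least 236 times as abundant in reads as the 5p arm in each of the 26 libraries. The means were 681 ± 175 in the mutant and 586 ± 110 in N2 (SD, n = 13 each), and 718 ± 117 in the mutant without 24 h (n = 12), when its range was 526 to 893.

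**Figure D2:**
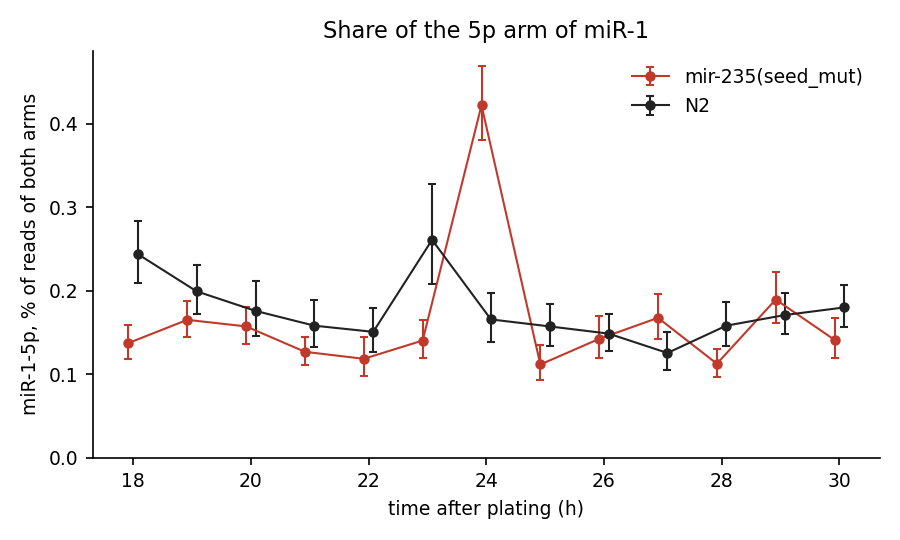
Share of miR-1-5p in the reads of both miR-1 arms, in percent, by time after plating in h, with mir-235(seed_mut) in red and N2 in black. Points are single libraries and bars are Wilson 95% intervals. The mutant library at 24 h, at 0.422%, stands above all others, which lie between 0.112% and 0.261%.

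To ask whether the choice of arm differed between strains or over time, the log2 ratio of 3p to 5p reads was compared in 3 tests. It averaged 9.34 ± 0.50 in the mutant and 9.17 ± 0.29 in N2 (SD, n = 13 each), and was higher in the mutant at 10 of 13 hours. The mean difference, mutant minus N2 at the same hour, was 0.18 ± 0.16 (SE), which did not pass the threshold of 0.01 (exact two-sided sign-flip test, p = 0.296, adjusted over the 3 tests p = 0.445). Leaving out 24 h, where the mutant passenger was high, gave a difference of 0.31 (exact sign-flip test, adjusted p = 0.0542). The slope of the log2 ratio over the hours was 0.015 ± 0.022 per h (SE, n = 26, permutation test, p = 0.521, adjusted p = 0.521). A 7 h cosine fitted to the ratio had an amplitude of 0.23 and took up 16.1% of the variance (permutation test, p = 0.144, adjusted p = 0.431), and the amplitude was 0.10 without mutant 24 h and at most 0.27 without any other single library.

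Many worm hairpins were less lopsided. Among 112 hairpins with a read count of at least 1 on average for the rarer arm, *mir-1* was 10th in the order of the arm ratio, at 613 guide reads per passenger read, against a median of 17.7. Just above it stood the hairpins of miR-65 (2160.4) and miR-85 (1567), and just below those of miR-72 (568) and miR-90 (566). The value of miR-85 rested on a mean of 1.27 passenger reads, whereas miR-1-5p had a mean of 158 reads per library. The SD of the log2 arm ratio over libraries was 0.39 for *mir-1* and ranked 22nd of the 54 hairpins whose rarer arm had a mean of at least 50 counts, for which the median SD was 0.44. With all libraries kept, the *mir-1* arm ratio thus varied about as much as that of a typical hairpin. Its value was the mean of an SD of 0.50 in the mutant and 0.29 in N2. The mutant SD included the library at 24 h, with a log2 ratio of 7.879 against 9.035 to 9.797 at the other mutant hours. The rank of *mir-1* without that library was not computed.

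Both strains were then compared in a fit over all 217 miRNAs that passed a filter on low counts, in which both miR-1 arms were kept. In the mutant miR-1-3p was higher than in N2 at 6 of 13 hours. The mutant level divided by the N2 level at the same hour was 0.874 at its lowest (29 h), 0.972 at the median and 1.71 at its highest (18 h). The ratio was above 1 at 18, 19, 20, 21, 23 and 28 h, and the hours 18 h and 23 h, at 1.71 and 1.62, were those of the 2 low N2 libraries. These ratios are of CPM and depend on the scaling. With TMM factors the levels in mutant and N2 were 31285 and 29781 CPM at 23 h. They were 30974 and 32962 CPM at 19 h, and 34868 and 21293 CPM at 18 h. Averaged over the hours in edgeR, which rescales libraries by the trimmed mean of M-values (TMM), the strain difference of miR-1-3p was 0.04 ± 0.08 on the log2 scale (SE, 95% interval -0.13 to 0.20) and did not pass the test (edgeR, Benjamini-Hochberg adjusted p = 0.774). Of all miRNAs tested, 7.37% were called in this comparison at an adjusted p under 0.01, and neither miR-1 arm was among them. With the hour as a replicate block, 1 miRNA was called in place of 16, and again neither arm was.

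The strain difference of miR-1-5p was equally without a call. Its mutant level was above that of N2 at 4 of 13 hours, with a ratio of 0.661 (25 h) at its lowest, 0.921 at the median and 2.24 (24 h) at its highest. The fitted mean difference was -0.11 ± 0.13 (SE, 95% interval -0.38 to 0.16, edgeR adjusted p = 0.549). Without the mutant library at 24 h it was -0.23 (adjusted p = 0.104), without N2 at 23 h it was -0.03 (adjusted p = 0.898), which are the ends of its range with 1 library left out, and without both libraries it was -0.15 (adjusted p = 0.203). The interval of the mean strain difference reached no farther from 0 than 0.20 for miR-1-3p and -0.38 for miR-1-5p, but a missed threshold does not show that the strains had equal levels.

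Next it was asked whether the arms followed a different time course in the strains. The joint test of any strain difference over time gave F = 1.27 for miR-1-3p (edgeR adjusted p = 0.526) and F = 0.188 for miR-1-5p (edgeR adjusted p = 0.989). Of all miRNAs tested, 0% passed in edgeR, although 34 (15.7%) had an unadjusted p under 0.05 and DESeq2 called 8. The slope of miR-1-3p over the hours was 0.007 ± 0.015 log2 per h in the mutant (SE, edgeR adjusted p = 0.782). In N2 it was 0.038 ± 0.016 (SE, edgeR adjusted p = 0.0550). Neither slope was called, where 22.6% of miRNAs in the mutant and 26.3% in N2 were. Slopes within a strain were tested in the main fit only. The difference between the strains was -0.031 ± 0.022 (edgeR adjusted p = 0.719). With 1 library left out it was -0.048 (without mutant at 22 h) to -0.016 (without N2 at 18 h). For miR-1-5p the slopes were 0.012 ± 0.030 in the mutant and -0.003 ± 0.030 in N2, with a difference of 0.015 ± 0.042 (edgeR adjusted p = 0.893). This test also called 0% of the miRNAs, with 15 (6.91%) at an unadjusted p under 0.05 in edgeR and 0 calls in DESeq2.

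**Figure D3:**
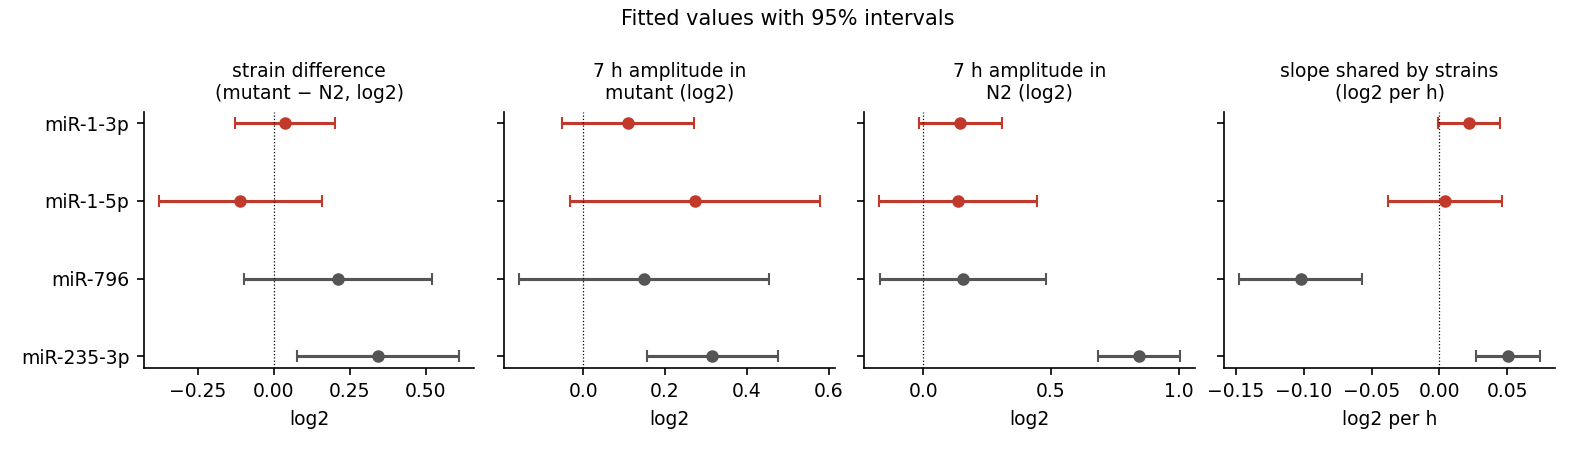
Values fitted with edgeR for both miR-1 arms (red), miR-796 and miR-235-3p (grey): mean strain difference (mutant minus N2, log2), amplitude of a 7 h rhythm in the mutant and in N2 (log2), and the slope shared by the strains (log2 per h). Points are estimates and bars 95% intervals, drawn symmetric although an amplitude cannot be negative. All intervals of the miR-1 arms cross 0, while miR-796 has a negative slope of -0.10 and miR-235-3p an N2 amplitude of 0.84.

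Worm larvae molt at a regular interval, and many of their transcripts cycle with it, so a rhythm with a period of 7 h was fitted in each strain. miR-1-3p had an amplitude, from midline to peak, of 0.11 ± 0.08 log2 in the mutant (SE, edgeR adjusted p = 0.722) and 0.15 ± 0.08 in N2 (edgeR adjusted p = 0.450). No call was made in either strain, where 2.3% of miRNAs in the mutant (5) and 5.99% in N2 (13) were called. These background counts varied with the setting, to 20 in the mutant and 23 in N2 with DESeq2, and to 18 in the mutant without N2 at 23 h. With 1 library left out at a time, the miR-1-3p amplitude was 0.08 (without 24 h) to 0.19 (without 27 h) in the mutant and 0.07 (without 19 h) to 0.19 (without 27 h) in N2. The difference of amplitudes was -0.04 ± 0.11 (SE, edgeR adjusted p = 0.981), in a comparison with 0.461% called. miR-235-3p, whose seed was edited, was the miRNA called there, with amplitudes of 0.32 ± 0.08 in the mutant and 0.84 ± 0.08 in N2 (edgeR adjusted p of the difference = 0.00352). This call was not firm, since 0 miRNAs were called without mutant 24 h, without N2 23 h, or in 9 of the 26 fits in all that left out 1 library. The difference in amplitude between miR-1-3p and miR-235-3p was not tested.

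For miR-1-5p the rhythm fits depended on the mutant library at 24 h. The amplitude was 0.27 ± 0.15 in the mutant (edgeR adjusted p = 0.534) and 0.14 ± 0.15 in N2 (edgeR adjusted p = 0.891), and their difference was 0.14 ± 0.21 (edgeR adjusted p = 0.981). Without mutant 24 h the mutant amplitude was 0.13. An amplitude is positive even where no rhythm exists, and 13 hours hold fewer than 2 periods, so amplitude and slope are not fully separate.

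A gradual change shared by the strains was not called for either miR-1 arm. The slope of miR-1-3p was 0.022 ± 0.011 log2 per h (SE, 95% interval -0.001 to 0.045, edgeR adjusted p = 0.0955), and that of miR-1-5p was 0.004 ± 0.020 (95% interval -0.038 to 0.046, edgeR adjusted p = 0.882). Gradual change was common among the miRNAs tested, with 40.6% called, 20.7% with a positive slope (45 miRNAs) and 19.8% with a negative one (43). With 1 library left out at a time, the miR-1-3p slope was 0.011 (without N2 at 28 h, adjusted p = 0.404) to 0.030 (without mutant at 27 h, adjusted p = 0.0252), and without N2 at 23 h and mutant at 24 h it was 0.015 (adjusted p = 0.240).

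Members of the lists set beside miR-1 did change over the hours. miR-796, which carries the miR-1 seed, fell by 0.10 ± 0.02 log2 per h (SE, edgeR adjusted p = 0.000366). It had 30.9 CPM in the mutant at 18 h and 8.86 CPM at 30 h, and in N2 18.3 CPM at 18 h and 6.96 CPM at 30 h. Its strain difference of 0.21 ± 0.15 was not called (edgeR adjusted p = 0.329). Because miR-1-3p was 1247 to 3585 times as abundant in mutant libraries and 1073 to 4700 times in N2 libraries, it held 99.92% to 99.97% of the reads of the pair in the mutant and 99.91% to 99.98% in N2. The family's read sum therefore followed miR-1-3p.

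Markers of other tissues that whole larvae hold had called slopes as well. Of 4 neuron miRNAs, miR-790-5p (-0.07 log2 per h, edgeR adjusted p = 0.00473) and lsy-6-3p (-0.06, edgeR adjusted p = 0.00605) fell, while miR-124-3p had a slope of -0.05 (edgeR adjusted p = 0.0139) and miR-791-3p of -0.03 (edgeR adjusted p = 0.492). The count depends on the arm listed, since miR-791-5p, the more abundant arm of that hairpin and named after its values were seen, had a called slope of -0.06 (edgeR adjusted p = 0.00500). The intestinal miR-60-3p rose by 0.08 log2 per h (edgeR adjusted p = 0.00131). Here too the arm mattered, since miR-60-5p, also named after its values were seen, had a slope of 0.01 (edgeR adjusted p = 0.538). Neither these 5 markers nor miR-796 had a called strain difference. Their part in the share of reads that miR-1-3p took was not tested.

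In CPM, miR-1-3p was one of the steadier miRNAs over the 12 h window, and its rank with TMM factors was not computed. The SD of its log2 CPM over the hours was 0.20 in the mutant and 0.23 in N2, and the mean of these, 0.22, ranked 18th from the lowest among those 177 miRNAs, whose median was 0.37 and range 0.15 to 3.69. Among the 20 most abundant miRNAs it ranked 4th, where the median was 0.28. Counting error alone would give an SD of 0.004 in the mutant and 0.005 in N2, so nearly all of this spread came from differences between libraries. Without N2 at 23 h the N2 value was 0.18. Without N2 at 23 h and mutant at 24 h, miR-1-3p kept rank 18 with a mean SD of 0.19.

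**Figure D4:**
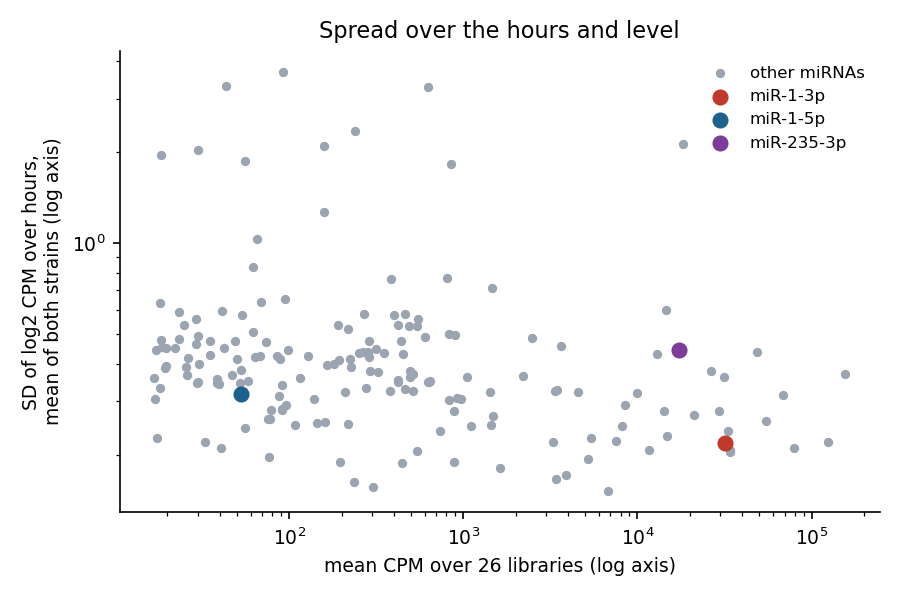
SD of log2 CPM over the 13 hours (mean of the strains, log axis) against mean CPM over 26 libraries (log axis) for 177 miRNAs that averaged 50 counts or more, with miR-1-3p in red, miR-1-5p in blue, miR-235-3p in purple and other miRNAs in grey. miR-1-3p lies low among the abundant miRNAs at 0.22, miR-1-5p at 0.32 and miR-235-3p at 0.44.

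The lowest spreads of all belonged to miR-87-3p (0.15), miR-248 (0.16) and miR-47-5p (0.16). miR-1-5p had an SD of 0.44 in the mutant and 0.19 in N2, where it ranked 10th of the 177. Leaving out mutant 24 h brought the mutant value to 0.23. Counting error alone would give 0.11 in the mutant and 0.12 in N2, a larger part of the spread than for the guide. The mean SD of 0.32 ranked 56th with all libraries, and 30th at 0.22 without N2 at 23 h and mutant at 24 h. In CPM the passenger was thus, apart from 1 library, about as steady as the guide. With TMM factors its level in N2 at 23 h was 77.95 CPM, its highest in that strain. Its SD in N2 was 12.74% of the mean in CPM and 17.92% with TMM factors, against 14.91% and 14.17% for the guide.

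From one hour to the next, miR-1-3p moved by a median of 0.20 log2 in the mutant and 0.15 in N2, or 1.15-fold and 1.11-fold. These steps ranked 59th and 35th from the smallest among the 177 miRNAs, whose medians were 0.24 in the mutant and 0.25 in N2. The largest steps of the guide in the mutant were 0.53 upwards into 28 h and -0.61 into 29 h. In N2 they were -0.63 into 23 h and 0.68 upwards into 24 h, either side of the smallest library. The TMM factor for this library raised its miR-1-3p level to 29781 CPM, within the range of the other N2 hours on that scale. On the TMM scale the range of miR-1-3p was 26066 to 40058 CPM in the mutant and 21293 to 40329 CPM in N2, with the N2 minimum at 18 h.

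The largest single departure of either arm was that of miR-1-5p in the mutant at 24 h. It had 47.2 CPM at 23 h, 124 CPM at 24 h and 37.4 CPM at 25 h, with exact Poisson 95% intervals of 39.8 to 55.6, 111 to 137 and 30.7 to 45.1 CPM, so the middle value lay outside the counting error of its neighbours. On the log2 scale it was 1.55 above the mean of its neighbours, against -1.01 to 0.29 in the 21 other libraries with a neighbour on both sides. Mutant 25 h (-1.01) and 23 h (-0.48) have the 24 h library itself as a neighbour. Without them the lowest was -0.46, in N2 at 27 h. miR-1-3p in the mutant library at 24 h was at 29180 CPM, -0.20 from the mean of its neighbours. The 5p share there, 0.422% (Wilson 95% interval 0.380% to 0.469%), was the highest of all libraries.

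**Figure D5:**
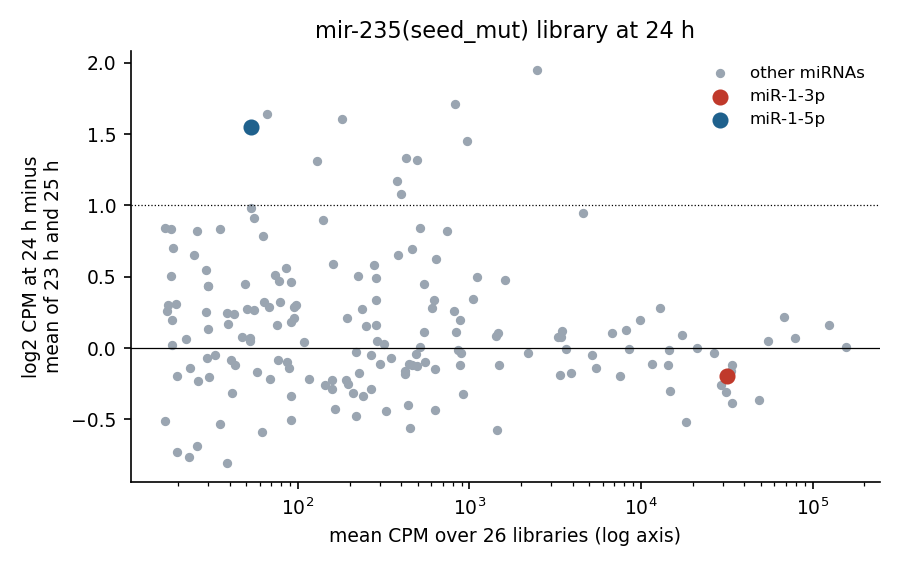
Difference in log2 CPM between the mutant library at 24 h and the mean of those at 23 h and 25 h, against mean CPM over 26 libraries (log axis), for 177 miRNAs. miR-1-5p (blue) at 1.55 lies with 10 others above the dotted line at 1, and miR-1-3p (red) lies at -0.20.

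miR-1-5p was not alone in this. It was 5th of the 11 miRNAs above 2-fold there, after miR-54-3p (1.95), miR-2-3p (1.71), miR-239b-5p (1.64) and miR-48-3p (1.61), and before miR-51-5p (1.45) and lin-4-5p (1.33), all named after their values were seen. Of the 11, 4 were among the 54 rarer arms, 6 among the 97 more abundant arms and 1 among the 26 miRNAs with 1 arm. With 1 library at that hour, whether the values belong to the animals or to the library cannot be told apart.

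The patterns of the arms over the libraries were then set against those of all other miRNAs, after each strain's mean was subtracted. Over 26 libraries, which share depth and scaling, the log2 CPM of miR-1-3p was most alike that of miR-4816-3p (Pearson r = 0.70), miR-4816-5p (0.67), miR-84-5p (0.63), miR-248 (0.63) and miR-62 (0.62). These likenesses were uneven between strains. For miR-4816-3p r was 0.84 in the mutant and 0.57 in N2, and for miR-84-5p 0.19 in the mutant and 0.88 in N2. With its own other arm, miR-1-3p had r = 0.006, which ranked 111th, and with miR-235-3p r = 0.17. Without N2 at 23 h and mutant at 24 h these values were 0.34 and -0.19, and those of the 5 miRNAs nearest to miR-1-3p were 0.44 to 0.66.

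Within a strain the arms were followed over 13 hours each, which are consecutive times rather than independent samples. In the mutant Pearson's r between miR-1-3p and miR-1-5p was -0.04 (permutation test, p = 0.908, adjusted over both strains p = 0.908) and Spearman's rho 0.14 (permutation test, p = 0.658, adjusted p = 0.658). In N2 r was 0.10 (permutation test, p = 0.735, adjusted p = 0.908) and rho 0.41 (permutation test, p = 0.160, adjusted p = 0.320). Without the 2 hours farthest from the median of miR-1-3p, r was -0.13 in the mutant and 0.56 in N2, and without 24 h it was 0.42 in the mutant. No relation between the levels of guide and passenger was therefore called in either strain, and the values of r moved with single libraries.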

How the data were processed

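Small RNA libraries (CleanTag kit, gel selection at 140 to 160 bp, 51 single-end cycles) were made from 13 hourly samples per strain. The authors trimmed reads with QuasR, aligned them to ce10 with Bowtie (version not given in the sources used here, up to 100 hits) and deposited counts of same-strand reads starting within 3 bp of the 5′ end of miRBase 22 mature miRNAs. The authors' deposited log2 table (depth-scaled count plus 8) served only as a check and was matched within 0.0005. Of 439 entries, 48 were at 0 throughout. Reads of both miR-235 alleles were summed per arm, which left 437. No table of miRNA sequences was used here.

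Library totals were 1342771 to 4279734 counts. Intervals are exact Poisson for CPM (per 1000000 counts) and Wilson for shares, at 95%. Like the floor of 3 counts, they do not go beyond counting error, because the reads had no molecular identifiers. Counts were tested with edgeR 4.0.16 (R 4.3.3; TMM, filterByExpr, robust glmQLFit, glmQLFTest), with Benjamini-Hochberg adjustment over 217 miRNAs and a threshold of 0.01. The mean strain difference used a cubic B-spline of the hour with 6 components plus strain, and the joint test added their interaction. Rhythm was cosine and sine with a 7 h period beside a linear term, and amplitude SEs came from the delta method. P-values measure the scatter of hourly libraries about fitted curves. Arm ratios (0.5 added to each count) were tested by all 8192 sign flips of 13 same-hour differences or by 100000 permutations. Scripts were tested on simulated data.

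Libraries of the same hour deviated together from their strain means (r = 0.159 to 0.93 over 13 hours, over 0.1 at all), so a fit with the hour as replicate block was made. Of the 13 libraries per strain, however, only 3 in the mutant and 3 in N2 were most alike the other strain's library of their own hour. Same-hour comparisons therefore rest on the labelled hour. Alternatives were other scalings, filters, pseudocounts, periods, splines, shifted mutant times, DESeq2 1.42.0, limma 3.58.1 and libraries left out. Leaving out N2 23 h and mutant 24 h together was chosen after the data were seen. Besides the miR-1 arms, the miRNAs named are miR-796, miR-235-3p, the tissue markers, the 5 most correlated with miR-1-3p, the 2 on either side in level and arm ratio, and the 3 with the lowest spread. Members and lists were chosen with earlier results of these data known.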

Additional observations from a re-analysis of the deposited data

How the results depend on the processing

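No test of a miR-1 arm or of the arm ratio passed an adjusted p of 0.01 in any of 631 combinations of 17 tests and their alternatives, and 2 fell under 0.05, the lowest at 0.0252 for the gradual change of miR-1-3p. Direction was kept in 597 and turned in 34, always for values without a call. For the miR-1-5p strain difference it turned with total counts (0.025). For the miR-1-5p gradual change it turned in limma at pseudocounts of 8 (-0.011) and 1 (-0.012), with total counts (-0.012) and with mutant times 1 h earlier (-0.0080). For the miR-1-5p slope difference it turned with total counts (-0.016), the filter dropped (-0.018) or set to an average of 50 counts (-0.0011), limma at pseudocounts of 8 (-0.013) and 1 (-0.014), mutant times 1 h earlier (-0.0033) and both doubted libraries left out (-0.00024). The miR-1-5p rhythm difference turned with limma and a pseudocount of 1 (-0.0021), the miR-1-3p rhythm difference with an 8 h period (0.028) or mutant times 1 h earlier (0.017), and the miR-1-3p strain difference with mutant times 1 h later (-0.016). The cause was not tested.

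With 1 library left out at a time, the lowest and highest values were -0.017 (without N2 18 h) and 0.13 for the miR-1-3p strain difference, -0.075 and 0.059 for its rhythm difference, -0.0091 and 0.012 for the miR-1-5p gradual change, -0.0048 and 0.28 for its rhythm difference and -0.014 and 0.031 for its slope difference. The miR-1-5p spread was 0.23 to 0.46 in the mutant (lowest without 24 h) and 0.14 to 0.20 in N2 (lowest without 27 h). With the hour as replicate block the strain difference was 0.03 for miR-1-3p (adjusted p = 0.812) and -0.14 for miR-1-5p (adjusted p = 0.446), and it changed no call of either arm.

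Over all miRNAs, 16 strain differences were called, against 5 with total counts, 1 without a filter, 24 with DESeq2, 4 with limma at either pseudocount, 1 with the hour as replicate block, 5 with mutant times 1 h later and 35 at a threshold of 0.05, and 1 to 21 with 1 library left out. The 5 mutant rhythms called became 1 to 18 with 1 library left out, 20 with DESeq2, 11 without a filter, 11 or 8 with limma at a pseudocount of 8 or 1, 9 with total counts, 3 at a shorter period, 8 or 2 with mutant times 1 h earlier or later, 19 without both doubted libraries and 23 at a threshold of 0.05. The 13 N2 rhythms became 23 with DESeq2, 6 or 8 at a period shorter or longer than 7 h and 25 at a threshold of 0.05. The joint test, with 0 calls, gave 8 with DESeq2, 7 with mutant times 1 h earlier, 3 without both doubted libraries, and 0 to 2 in the other settings. For the rhythm difference, 1 was called in edgeR with TMM or DESeq2 size factors and in DESeq2, 12 with mutant times 1 h earlier, and 0 with total counts, either other filter, limma, either other period or mutant times 1 h later. Total counts moved the median strain difference of all miRNAs to 0.10, against -0.02 with TMM, and gave 0.16 for miR-1-3p (adjusted p = 0.202). Depth limits miR-1-5p, counted with 73 to 350 reads per library, and not miR-1-3p.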

Other observations

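miR-1-5p had its own nearest patterns over the 26 libraries, chosen after the values were seen and given as a description. They were miR-51-5p (Pearson r = 0.89), miR-54-3p (0.79), miR-56-3p (0.76), lin-4-5p (0.75) and miR-53-5p (0.74). Of these, 4 were also among the 11 miRNAs that were more than 2-fold above their neighbouring hours in the mutant at 24 h. Without N2 at 23 h and mutant at 24 h the values were 0.72 for miR-51-5p, 0.63 for miR-54-3p, 0.54 for miR-56-3p, 0.39 for lin-4-5p and 0.53 for miR-53-5p.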
